A study of Mus musculus with 34 samples.

Results

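The cytosolic ribosomal protein genes encode the protein parts of the ribosome that works outside mitochondria. They were taken by name from the pooled count table, as every gene called Rpl or Rps followed by a number and at most a short suffix, together with Rplp0, Rplp1, Rplp2 and Rpsa. Names marked as pseudogenes and the Rps6k kinase genes were left out. The rule found 83 of 32285 genes and used no measured value. In the cells kept, these genes gave 164169246 unique molecular identifiers (UMIs, each standing for 1 captured RNA molecule). The 8 other Rpl or Rps names were set aside, of which Rpl36al was the largest with 525094 UMIs. Fau, which encodes a ribosomal protein fused to a ubiquitin-like sequence, has another name and was outside the rule.

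The study followed tumours of MMTV-Wnt1 mice, in which a mammary-active viral promoter drives the Wnt1 oncogene, in C57BL6/j animals. Tumours were dissociated, CD45+ or CD4/8+ cells were pulled out on magnets, and 10 single-cell libraries were made with a 3′ kit. The 4 CD45+ libraries came from untreated tumours (replicates 1 and 2) and from tumours given 5 doses of doxorubicin at 4 mg/kg and taken 48 h after the last dose (replicates 1 and 2). Doxorubicin is a topoisomerase II poison used as chemotherapy. The 6 T cell libraries had 1 library per group. They were untreated, doxorubicin at 48 h, and doxorubicin followed by 3 antibody doses 72 h apart with harvest 24 h after the last. The antibody arms were control IgG at 400 µg, anti-PD1 at 200 µg with 200 µg IgG, anti-CTLA4 at 200 µg with 200 µg IgG, and both antibodies at 200 µg each. Every antibody arm had also received doxorubicin. A pooled table of unsorted cells mixes 1 untreated tumour and 1 tumour given the same doxorubicin course. It was treated as 1 sample, since its cells were not tied to a tumour. The labels do not say that replicates came from separate animals, so p-values measure the spread between these libraries, which may be technical.

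Ribosomal proteins are made in near-equal numbers and assembled with ribosomal RNA in the nucleolus into a small subunit, which reads the messenger RNA, and a large subunit, which joins amino acids. Their messenger RNAs are among the most abundant in growing cells and usually begin with a C followed by a run of pyrimidines, the 5′ TOP motif, through which mTOR and LARP1 control their translation. A few members have a paralogue with its own expression pattern. Among these is Rps27l, a known target of p53.

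After filtering, the CD45+ libraries held 3581 and 1797 untreated cells and 1480 and 3996 doxorubicin cells, with median depths of 4001.5 to 10468 UMIs per cell. The T cell libraries held 3445 to 7623 cells with medians of 6704 to 10513 UMIs. Cells were gated by 8 markers per class, and 3.29 to 25.7% of cells per library joined no class. All 8 of a class's own markers were detected in each of the neutrophil, macrophage/monocyte, T cell and epithelial gates of every library with at least 30 such cells (8 of 11 sample tables for neutrophils, 11 of 11 for the others). Their summed level was 34.05 to 43.69 UMIs per 10000 in the T cell gate and 93.72 to 132.9 in the neutrophil gate. Epithelial markers gave 0.308 to 3.96 UMIs per 10000 in the T cell gate, 0.294 to 5.32 in the macrophage gate and 0.729 to 19.03 in the neutrophil gate. The part of such foreign RNA in the values that follow was not tested. Epithelial cells were present in both kinds of sorted library, although neither sort selects them.

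The starts of the members that the results turn on are shown to let a reader see the pyrimidine run at the site where the 5′ TOP motif lies. Each line gives 20 bases before and 20 bases after the RefSeq start of the gene, on the gene's strand, in GRCm38.p6. Capitals mark the longest run that begins with C, continues for at least 4 more bases of C or T, and starts within 10 bases of the gene's start. Lines without capitals hold no such run. Rps27l has 2 starts in RefSeq, and the first listed is shown. Its other start holds no such run.
Rpl15, chr14:18270967-18271006, minus strand: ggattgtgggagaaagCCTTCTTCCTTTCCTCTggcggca
Rps18, chr17:33955646-33955685, minus strand: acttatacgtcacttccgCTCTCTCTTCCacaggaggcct
Rps15a, chr7:118116128-118116167, minus strand: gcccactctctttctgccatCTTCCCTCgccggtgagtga
Rps27, chr3:90213629-90213668, minus strand: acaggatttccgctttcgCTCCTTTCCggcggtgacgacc
Rps27l, chr9:66946066-66946105, plus strand: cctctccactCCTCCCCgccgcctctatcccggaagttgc
Rps9, chr7:3704021-3704060, plus strand: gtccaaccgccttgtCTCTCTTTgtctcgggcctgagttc
Rps4x, chrX:102189372-102189411, minus strand: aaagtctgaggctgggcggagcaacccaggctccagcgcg
Rpl7l1, chr17:46782637-46782676, minus strand: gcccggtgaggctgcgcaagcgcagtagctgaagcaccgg
Rpsa, chr9:120127746-120127785, plus strand: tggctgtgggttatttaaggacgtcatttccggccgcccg
The RefSeq table held 63 of the 83 members with 75 starts. A run of 5 or more bases was found at 54.7% of the member starts (41 of 75), at 41.3% of the starts of mitochondrial ribosomal protein genes (31 of 75) and at 30.7% of all 32851 starts. Runs of 8 or more stood at 32% of member starts (24 of 75), at 6.67% of the mitochondrial ones (5 of 75) and at 8.11% of all starts. Only the gene's own strand was read, and a match describes the letters and not a site. Rpl15 carried a run of 17 bases, while Rps4x, Rpl7l1 and Rpsa had none in this window. Rpl32 and Rps29 had no entry.

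Most members were abundant in every library, and a few were nearly silent. The largest total belonged to Rps24, a small subunit protein, with 3802294 UMIs. Rpl13 gave 3734184, the P-stalk protein gene Rplp1 3640114 and Rpl32 3367246. Rps24 held 2.05 to 2.60% of the member UMIs of a library, so no single gene dominated the sum. At the other end stood the paralogues Rpl10l with 3 UMIs, Rpl39l with 596, Rpl3l with 842 and Rpl7l1 with 32496. Rps27l and Rpl22l1 gave 322718 and 555076 UMIs. Large subunit genes held 52.4 to 56.6% of member UMIs in every class and library compared. Levels of different genes are given here as UMIs of a 3′ assay, which counts 1 end per molecule. Near-identical copies (Rps27 and Rps27rt, Rpl36a and Rpl36al, Rpl9 and its copy Rpl9-ps6) can split reads, so those levels are uncertain.

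The share of a cell's UMIs that came from ribosomal protein genes depended strongly on the cell class. Among neutrophils, macrophages, T cells and epithelial cells, neutrophils held the least and T cells and epithelial cells the most. In the 4 CD45+ libraries, in the order untreated 1, untreated 2, doxorubicin 1 and doxorubicin 2, the share in neutrophils was 6.52, 5.48, 5.59 and 5.77%. In macrophages and monocytes it was 15.004, 16.4, 11.8 and 13.3%. In T cells it was 27.9, 26.7, 29.4 and 23.8%, and in epithelial cells 27.6, 28.1, 21.96 and 22.7%. Macrophages exceeded neutrophils in 8 of 8 sample tables with at least 30 cells of both, by 6.16 to 10.94 percentage points. Epithelial cells exceeded macrophages in 11 of 11 sample tables, by 8.71 to 16.19 points. T cells exceeded macrophages in 11 of 11 by 10.33 to 20.28 points. T cells exceeded epithelial cells in 10 of 11, with differences from -1.31 to 8.23 points, so the order of these classes was not fixed. These shares are a description, with no test.

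**Figure D1:**
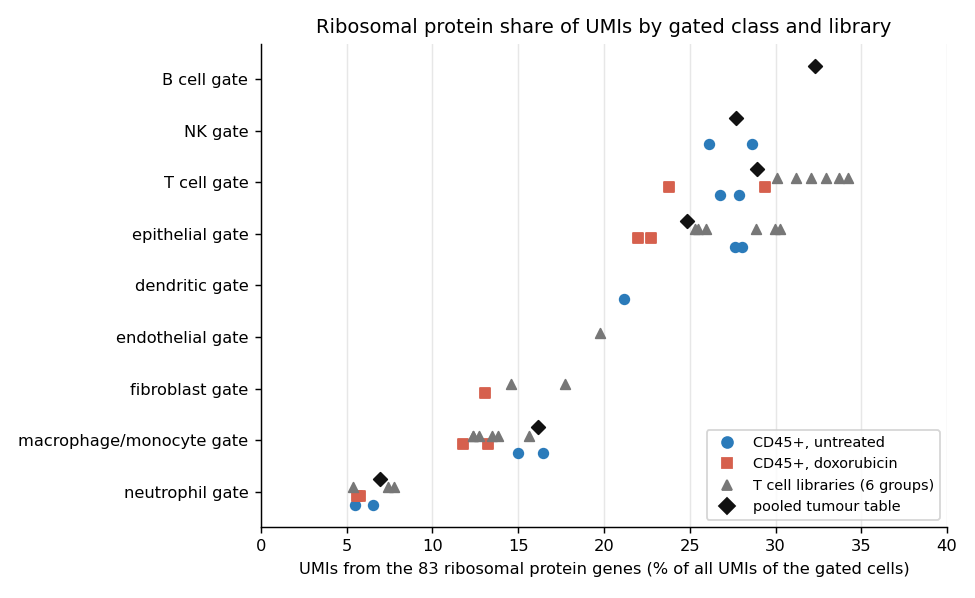
Share of UMIs from the 83 cytosolic ribosomal protein genes (horizontal axis, percent) by gated class and library. Neutrophils lie near 6%, macrophages and monocytes between 11.8 and 16.4%, and T cells and epithelial cells above 21%.

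Within T cells the share followed subset and division. CD8 cells exceeded CD4 cells without Foxp3, the regulatory T cell factor, in 9 of 9 sample tables by 0.988 to 9.61 points. CD4 cells without Foxp3 exceeded those with it in 5 of 6, with a median difference of 2.31 points. T cells with no dividing marker exceeded dividing T cells in 9 of 9, by 0.594 to 5.45 points. Epithelial cells went the other way. Dividing epithelial cells exceeded those with no dividing marker in 8 of 9 sample tables, by a median of 3.09 points. Cells called dividing had UMIs of at least 3 dividing markers, and they were deeper. In untreated replicate 1 the median was 19911 UMIs in dividing T cells and 6732 in the others. The part of depth in these differences was not tested.

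Beyond the amount, the makeup of the ribosomal protein messenger pool differed between classes for named members. Here each gene is given as its percentage of all member UMIs, and each class was compared with macrophages over the 4 CD45+ libraries with the library as a block (edgeR quasi-likelihood test, Benjamini-Hochberg adjustment over all genes). With the member sum as library size, 65.9% of all genes tested were called between T cells and macrophages, 59.6% between neutrophils and macrophages and 70.6% between epithelial cells and macrophages. In T cells 9 of 82 members tested were higher and 14 lower, where 10.3% and 55.6% of all genes were. In neutrophils 4 of 81 were higher and 10 lower, where 48.5% and 11.0% of all genes were. In epithelial cells 14 of 81 were higher and 15 lower, where 22.6% and 47.9% were. This scale fixes the sum of the members and shifts the median of all genes by -0.80, 0.78 and -0.48 (log2), so the calls describe single members and not the set.

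Rps15a, a small subunit protein whose start carries a run of 8 pyrimidines, was high in T cells. It made up 2.07, 2.83, 2.10 and 2.54% of the pool in T cells, in the library order above. In macrophages it made up 1.22, 1.61, 0.992 and 1.46%. The groups did not overlap, and the log2 difference was 0.86 (SE 0.13, edgeR adjusted p = 0.000455). Over all sample tables Rps15a lay at 2.07 to 2.83% in T cells and at most 1.66% in epithelial cells. Natural killer cells held 2.03 to 2.25% in 3 sample tables and B cells 1.97% in 1. Rps18 (log2 difference 0.51, edgeR adjusted p = 0.0132), Rpl12 (0.46, adjusted p = 0.0138) and Rpsa, the laminin receptor homologue of the small subunit (0.41, adjusted p = 0.0159), also held more of the T cell pool. The call of Rpl12 was lost without untreated replicate 1 (edgeR adjusted p = 0.113), and that of Rpsa without untreated replicate 1 or 2 (adjusted p = 0.121 and 0.0772). The count of departing members in T cells was 7 and 13 without those libraries and 10 without doxorubicin replicate 2. On the low side, Rps29 lay at a log2 difference of -0.64 in T cells (SE 0.11, edgeR adjusted p = 0.00135).

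Neutrophils had a pool rich in Rps27, a zinc-finger protein of the small subunit that was also called higher in T cells than in macrophages. Its part of the pool was larger in T cells than in macrophages, and than in epithelial cells, in 11 of 11 sample tables. Rps27 made up 3.69, 3.52, 4.38 and 3.64% of the neutrophil pool and 1.24, 1.14, 1.44 and 1.14% of the macrophage pool. The log2 difference was 1.62 (SE 0.19, edgeR adjusted p = 2.84e-06), with no overlap. Rps9 was higher by 0.70 (edgeR adjusted p = 0.00832). Lower in neutrophils were Rps4x at -0.89 (edgeR adjusted p = 0.0007), Rpl10a at -0.83 (adjusted p = 0.00104), the peptidyl-transferase-centre protein gene Rpl3 at -0.70 (adjusted p = 0.00415) and Rpsa at -0.58 (adjusted p = 0.0135). Rps4x made up 0.583, 0.893, 0.561 and 0.623% of the neutrophil pool against 1.11, 1.38, 1.07 and 1.29% of the macrophage pool. With the looser gate the count of departing members in neutrophils was 2 in place of 14, and Rps9, Rps4x, Rpl10a, Rpl3 and Rpsa were no longer called (edgeR adjusted p of 0.136 to 0.370). The count was 6 without untreated replicate 1 and 7 without either doxorubicin library. Rpsa lost its call without untreated replicate 1 or doxorubicin replicate 1.

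Epithelial cells were marked by little Rps29. It made up 1.37, 1.42, 2.19 and 1.59% of their pool and 2.97, 2.85, 3.92 and 3.16% of the macrophage pool. The log2 difference was -0.99 (SE 0.10, edgeR adjusted p = 3.92e-05). Rps25 (-0.57, edgeR adjusted p = 0.00212) and the P-stalk gene Rplp2 (-0.51, adjusted p = 0.00276) were also lower. The trace gene Rpl3l stood at -2.72 (edgeR adjusted p = 0.000573). Rps2 (0.57, edgeR adjusted p = 0.00107), Rpl15 (0.50, adjusted p = 0.00349), Rps18 (0.52, adjusted p = 0.00421) and Rpl36 (0.50, adjusted p = 0.00459) were higher. Without doxorubicin replicate 2 the count of departing members was 15 in place of 29, and the members named here were still called.

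**Figure D2:**
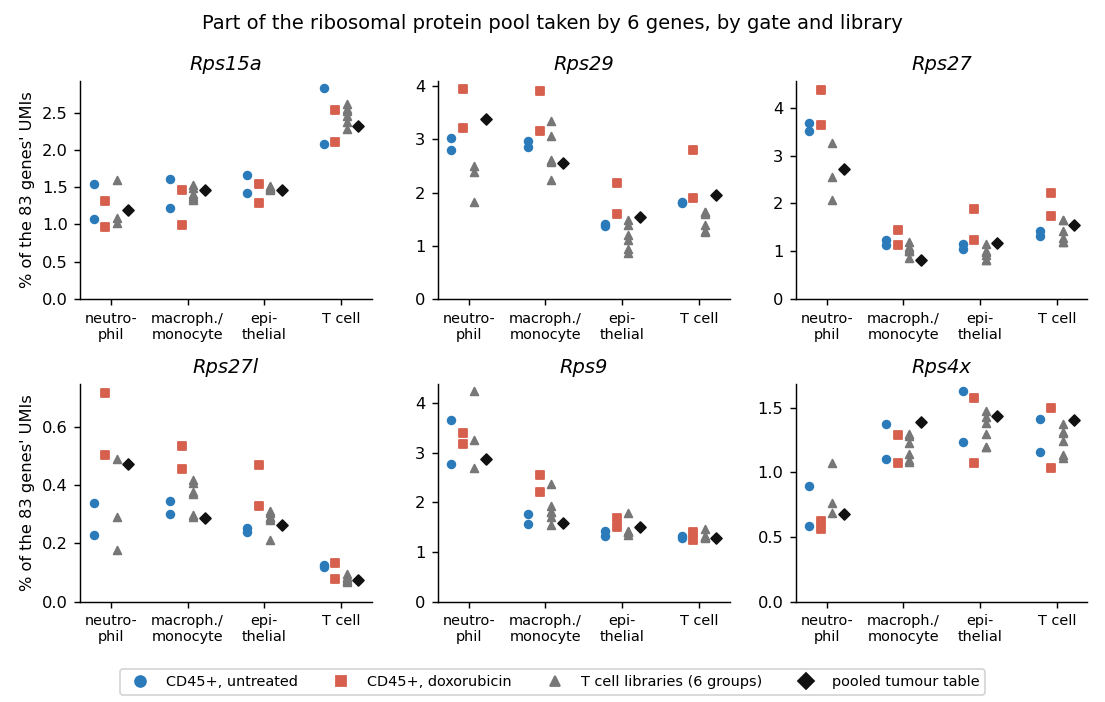
Percentage of the ribosomal protein messenger pool held by named members, by class, with 1 point per library. Rps15a is high in T cells, Rps27 in neutrophils, Rps29 in macrophages and neutrophils, and Rps27l is low in T cells compared with the other classes plotted. Within each sample table Rps27 is also higher in T cells than in macrophages and epithelial cells.

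The directions were read again in sample tables that these fits did not use, the T cell libraries and the pooled tumour table. Of the members higher in T cells than macrophages, 9 of 9 kept their direction in all 7 other tables, and of those lower, 13 of 14 did. Among all 82 members, 30 were higher and 25 were lower in all 7. For neutrophils 4 of 4 higher and 8 of 10 lower members kept direction in all 4 other tables, where 18 and 24 of all 81 members did so. For epithelial cells 13 of 14 and 11 of 15 kept direction in all 7, where 25 and 21 of 81 did so. The exception for T cells was Rpl37a, in 6 of 7. For neutrophils Rpsa was lower in only 2 of 4 and Rpl36a in 3 of 4. For epithelial cells Rpl22l1 was higher in 5 of 7, and Rpl38, Rpl3l, Rps28 and Rpl7l1 were lower in 6 of 7.

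Among the paralogues, Rps27l, Rpl7l1, Rpl3l and Rpl22l1 were called between classes. Rps27l made up 0.068 to 0.132% of the pool in T cells and 0.287 to 0.534% in macrophages, with a log2 difference of -1.83 (SE 0.24, edgeR adjusted p = 0.000262). Natural killer cells were as low, at 0.0694 to 0.0883% in 3 sample tables, and B cells stood at 0.0245% in 1. Its levels in epithelial cells, 0.210 to 0.468%, overlapped those of macrophages across sample tables. Within a sample table, epithelial cells were above macrophages in 0 of 11. The log2 difference was -0.37 (edgeR adjusted p = 0.0264). Rpl7l1, a relative of Rpl7, made up 0.0108 to 0.0169% in T cells and 0.0252 to 0.04996% in macrophages (log2 difference -1.35, SE 0.20, edgeR adjusted p = 0.000443). Rpl3l, known as the form of Rpl3 in striated muscle, was a trace gene. It gave 0.0127 to 0.0380% of the neutrophil pool and 0.00035 to 0.0046% of the macrophage pool (log2 difference 3.16, edgeR adjusted p = 1.75e-06), and at most 0.00024% of the T cell pool. Rpl22l1, the relative of Rpl22, was lowest in neutrophils with a median of 0.184% and had a median of 0.376% in epithelial cells.

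The next comparison asks what chemotherapy does to these genes in the tumour's CD45+ libraries. Over whole libraries the ribosomal protein share was lower after doxorubicin. It was 23.8 and 22.6% in untreated tumours and 14.9 and 15.2% after doxorubicin, with no overlap (means 23.2% ± 0.85 and 15.1% ± 0.215, SD, n = 2). The difference was -8.19 percentage points. Neutrophils, the class with the lowest share, made up 9.13 and 4.396% of untreated cells and 52.4 and 44.6% of doxorubicin cells. With neutrophil-gated cells removed the shares were 24.1 and 22.8% against 18.5 and 17.6%, a difference of -5.41 points. No test of a share was made, since 2 against 2 libraries cannot reach an exact permutation p below 0.33.

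Per gene, 82 members were tested over whole libraries and 7 fell, where 5.5% of 16068 genes were called and 2.26% fell (edgeR quasi-likelihood test on summed counts, trimmed-mean scaling, Benjamini-Hochberg adjustment). The members' median log2 change was -0.81 and that of all genes -0.02. A value below 0 was seen in 80 of 82 members. Rpl32 stood at 4435 and 4653 CPM (counts scaled to a common library total) in untreated libraries and at 2236 and 2476 after doxorubicin (log2 change -1.07, SE 0.19, edgeR adjusted p = 0.0389). Rpl15 went from 2461 and 2327 to 1114 and 1364 (-1.07, SE 0.20, adjusted p = 0.0432 in the same edgeR fit). Rps18, Rpsa, Rps2, Rpl13 and Rpl11 also fell, by 0.98 to 1.09 on the log2 scale with edgeR adjusted p of 0.0435 to 0.0483. None of the 7 was called when either untreated or either doxorubicin library was left out. DESeq2 called 57 members, of which 56 fell, where it called 16.4% of all genes.

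Within classes, the groups did not overlap in macrophages and epithelial cells. In macrophages the means were 15.7% ± 0.999 and 12.5% ± 1.07 (SD, n = 2), a difference of -3.20 points without overlap. In epithelial cells they were 27.8% ± 0.314 and 22.3% ± 0.536 (SD, n = 2), a difference of -5.51 points without overlap. Neutrophils differed by -0.32 points and T cells by -0.70 points, and in both the groups overlapped. The neutrophil difference turned to 0.199 without untreated replicate 1 and was -3.42 with the looser gate, about as large as that of macrophages. The T cell difference was 2.09 without doxorubicin replicate 2. Epithelial cells with no dividing marker kept the difference, at 27.1 and 27.8% against 21.2 and 20.2%. The median ribosomal protein UMIs per cell, averaged over libraries, went from 1778 to 1171 in macrophages, where other UMIs were 10399 and 10420. In epithelial cells they went from 9583 to 3739, and other UMIs from 26597 to 16642. In epithelial cells with no dividing marker they were 2392 before and 2770 after, and other UMIs were 6534 and 12058. In neutrophils they were 130 and 151.5, and in T cells 2624 and 2056. A lower share went with fewer ribosomal protein UMIs per cell in some of these classes and with more other UMIs in others. Cell numbers were small after doxorubicin, with 86 and 254 epithelial and 119 and 358 T cells.

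Few members passed the gene-level test inside a class. In epithelial cells 1 of 81 fell, where 5.53% of genes were called and 3.1% fell. This was Rpl32, at 5411 and 6033 CPM before and 3566 and 3854 after (log2 change -0.79, SE 0.17, edgeR adjusted p = 0.0479). Its call was lost when any 1 of the 4 libraries was left out (edgeR adjusted p of 0.0768 to 0.285), and DESeq2 called 20 members, where it called 9.99% of all genes. The members' median was -0.53, with 78 of 81 below 0. In macrophages 0 of 81 were called by edgeR, where 6.74% of genes were called, with 19 at an unadjusted p under 0.05 and 9 called by DESeq2, which called 8.12% of all genes. The median there was -0.42. In T cells 0 of 80 were called, with 0 at an unadjusted p under 0.05 and 0 by DESeq2, and 0.0191% of genes were called (median -0.19). In neutrophils 0 of 81 were called, with 1 at an unadjusted p under 0.05 and 0 by DESeq2, and 0.0% of genes were called (median -0.33). An effect seen in one class and not in another was not tested as a difference of the share.

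**Figure D3:**
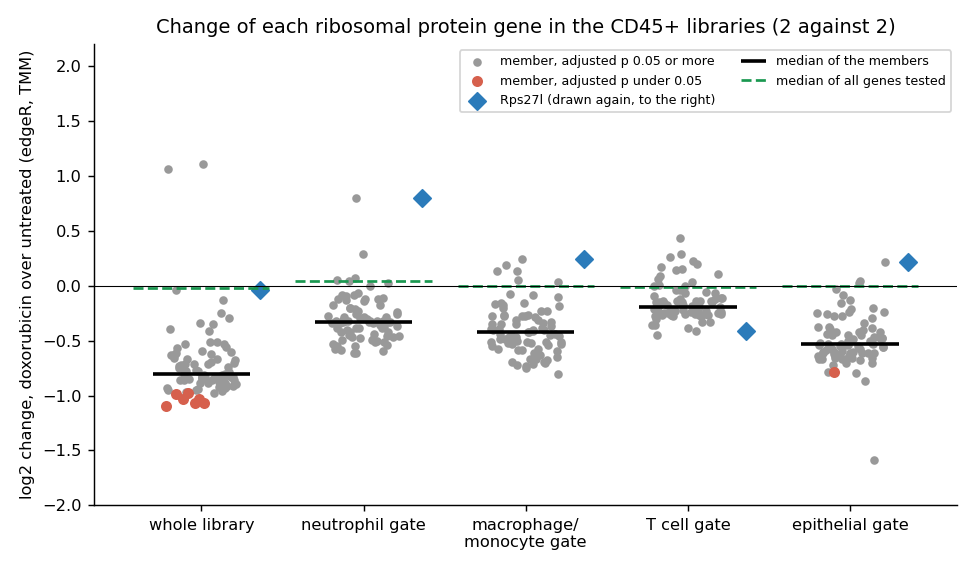
Log2 change of each ribosomal protein gene after doxorubicin, by class (edgeR, trimmed-mean scaling), with 1 point per gene and called genes in red. Most points lie below 0 in every class, with medians of -0.81 over whole libraries and -0.19 in T cells.

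To see which members left the common shift, each was also tested against the summed member counts. This scaling moves the median of all genes to 0.72 (log2) over whole libraries, 0.32 in neutrophils, 0.37 in macrophages, 0.17 in T cells and 0.48 in epithelial cells, so values are read relative to the members. Over whole libraries 2 of 82 members rose and 0 fell, where 34.5% of genes were called and 33.1% rose. The lowest members by p were Rpl32, Rpl15, Rps2 and Rps18, at -0.29 to -0.35, none called. Rpl3l had 146 and 87 UMIs in untreated and 92 and 179 in doxorubicin libraries, and rose by 1.85 relative to the members (SE 0.33, edgeR adjusted p = 0.0131). Rpl39l had 39 and 13 against 13 and 47 UMIs, which came from 16 and 4 against 3 and 19 cells. It rose by 1.82 (SE 0.55, edgeR adjusted p = 0.0461), but its call was lost when any 1 of the 4 libraries was left out. That of Rpl3l was lost without untreated replicate 1. Neutrophils, the class with the highest Rpl3l, were more frequent after doxorubicin, and their part in the whole-library value was not tested. Within neutrophils Rpl3l made up 0.0253 and 0.0380% before and 0.0216 and 0.0279% after, and the groups overlapped.

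Rps27l had the smallest p of any member against the pool in neutrophils, macrophages and epithelial cells. Over whole libraries it made up 0.243 and 0.230% of the pool before and 0.3331 and 0.439% after doxorubicin (log2 difference 0.71, edgeR adjusted p = 0.0604). In neutrophils the values were 0.340 and 0.228% before and 0.502 and 0.716% after (1.07, SE 0.34, edgeR adjusted p = 0.386). In macrophages they were 0.346 and 0.302% before and 0.456 and 0.534% after (0.61, SE 0.23, adjusted p = 0.106). In epithelial cells they were 0.251 and 0.238% before and 0.329 and 0.468% after (0.70, SE 0.25, edgeR adjusted p = 0.0826). The doxorubicin libraries were higher than both untreated ones in each of these classes, but none passed the test as designed. Over whole libraries Rps27l was called with trimmed-mean factors on the members alone (edgeR adjusted p = 0.0428). In epithelial cells it was called without the filter on low counts (adjusted p = 0.0478) and without doxorubicin replicate 1 (adjusted p = 0.0264). In T cells the values were 0.126 and 0.119% before and 0.0783 and 0.132% after, which overlapped (-0.22, SE 0.33, edgeR adjusted p = 0.979). In cells with no dividing marker Rps27l passed the test against the pool. Relative to the members it rose by 0.73 in macrophages (SE 0.22, edgeR adjusted p = 0.0478, with 17.2% of genes called). In epithelial cells it rose by 1.11 (SE 0.29, edgeR adjusted p = 0.0305, with 5.83% called). On that scale the median of all genes was itself 0.42 and 0.61 in these cells. That subset was chosen after the first results were seen. On the usual trimmed-mean scale Rps27l differed by 0.24 in all macrophage-gated cells and by 0.22 in all epithelial-gated cells, neither called. In cells with no dividing marker the highest value of any member on that scale was 0.30 in macrophages and 0.51 in epithelial cells. The highest in neutrophils was 0.80, and 0 members were called as risen in any of these fits.

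Among the sorted T cell libraries, which the CD45+ fits did not use, Rps27l in epithelial cells made up 0.210% of the pool in the untreated library and 0.281 to 0.311% in the 5 doxorubicin-treated libraries. In macrophages it made up 0.290% in the untreated library and 0.298 to 0.417% in the others. In T cells it made up 0.0699% in the untreated library and 0.0681 to 0.0937% in the others. These libraries have 1 per group and give no test.

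The class difference in the response of Rps27l did not pass the correction. The T cell change minus the epithelial change was -0.95 on the log2 scale (SE 0.20, unadjusted p = 0.00238, edgeR adjusted p = 0.354). Against neutrophils it was -1.35 (SE 0.41, edgeR adjusted p = 0.221) and against macrophages -0.88 (SE 0.39, adjusted p = 0.942). Over all 6 class pairs 0 members were called by edgeR. Of all genes, 0.0% were called for T cells against macrophages and against epithelial cells and 0.464% for T cells against neutrophils. The other pairs had 2.33% (epithelial cells and macrophages), 1.73% (neutrophils and macrophages) and 0.326% (neutrophils and epithelial cells). Between 0 and 1 member per pair had an unadjusted p under 0.05, and no other tool was run. On simulated data this interaction recovered 0% of changes of 1 log2 unit for T cells against macrophages, so a miss says little.

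In the fits without a replicate block no other member was called within a class, where 0.0% of genes were called on the pool scale in neutrophils, 11.5% in macrophages, 0.0% in T cells and 17.2% in epithelial cells. The unadjusted p was under 0.05 for 1, 3, 1 and 2 members. On the upper side Rpl37a stood at 0.51 in macrophages (edgeR adjusted p = 0.148) and 0.51 in epithelial cells (adjusted p = 0.0926), and Rps27 at 0.54 in T cells (adjusted p = 0.972). Rps9 stood at 0.52 in macrophages (edgeR adjusted p = 0.144) and Rps19 at 0.56 in neutrophils (adjusted p = 0.552). On the lower side were Rps18 at -0.44 in macrophages (edgeR adjusted p = 0.231), Rpsa at -0.38 in epithelial cells (adjusted p = 0.235), Rpl28 at -0.31 in T cells (adjusted p = 0.972) and Rpl7 at -0.34 in neutrophils (adjusted p = 0.708). Other members with small p in a class were Rps28, Rps29, Rpl41 and Rps21 on the upper side. On the lower side they were Rpl10, Rps4x, Rpl21, Rps2, Rpl15, Rpl32 and Rpl3l. None of these was called.

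Other genes of the ribosome pathway were counted from lists on the trimmed-mean scale, beside an all-gene median of -0.02 over whole libraries and near 0 in each class. Of all genes 2.26% fell over whole libraries and 3.1% in epithelial cells. The counts of 2 in 78, 1 in 36 and, in epithelial cells, the single mitochondrial gene were near or below those shares. The 78 mitochondrial ribosomal protein genes, which build the separate ribosome of mitochondria, had a median of -0.66 over whole libraries with 2 fallen and 0 risen. These were Mrpl11 at -1.004 (edgeR adjusted p = 0.0421) and Mrps22 at -1.16 (adjusted p = 0.044). In epithelial cells their median was -0.51, and Mrpl18 fell, at -1.14 (edgeR adjusted p = 0.0371). Ribosome biogenesis factors, which process ribosomal RNA and assemble subunits, had a median of -0.51 over whole libraries, with 1 of 36 fallen. This was Fbl, the methyltransferase fibrillarin, at -0.98 (edgeR adjusted p = 0.0472). Dkc1, the pseudouridine synthase dyskerin, was at -1.13 (adjusted p = 0.0585 in the same edgeR fit) and Wdr12 at -0.89 (adjusted p = 0.0628). Of 26 translation factors and other 5′ TOP genes, 2 fell over whole libraries, with a median of -0.70. Hnrnpa1, an RNA-binding protein, changed by -1.26 (edgeR adjusted p = 0.0316) and Npm1, the nucleolar chaperone nucleophosmin, by -1.18 (adjusted p = 0.0343). In epithelial cells 3 of 26 fell, with Hnrnpa1 at -1.22 (edgeR adjusted p = 0.025), Npm1 at -1.06 (adjusted p = 0.0442) and the filament gene Vim at -2.12 (adjusted p = 0.0173). Regulators of ribosomal protein synthesis had a median of -0.08 over whole libraries with 0 of 27 called by edgeR, and 4 at an unadjusted p under 0.05. Mdm2, the ligase that restrains p53 and binds free ribosomal proteins, was at 1.40 (edgeR adjusted p = 0.0736), Mycl at -1.77 (adjusted p = 0.0712) and the stress gene Sesn2 at 1.21 (adjusted p = 0.0767).

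The sorted T cell libraries ask how checkpoint antibodies given after doxorubicin alter T cells. In T cell-gated cells the ribosomal protein share was 32.1% in the untreated library and 33.7% at 48 h after doxorubicin. It was 32.97% with IgG, 34.3% with anti-PD1, 30.1% with anti-CTLA4 and 31.2% with both antibodies. The 2 arms that held anti-CTLA4 were the lowest. In CD8 cells the shares were 34.5, 35.5, 34.2, 35.999, 30.4 and 31.8% in the same order. With 1 library per group there is no replicate check. Exact binomial intervals (95%) are narrow, such as 30.05 to 30.08% for anti-CTLA4, and cover counting error only.

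Inside the T cell pool few members passed the limit set on their ratio. Of 81 members with at least 50 UMIs over both libraries, 2 passed a log2 ratio of 0.5 between doxorubicin at 48 h and untreated, where 25.5% of genes did. The large subunit gene Rpl23a held 0.652% of the pool after doxorubicin and 0.421% in the untreated library (log2 ratio 0.63, interval 0.61 to 0.65). Rpl39l, a relative of Rpl39 known from testis, had 188 UMIs against 23 (2.69, interval 2.06 to 3.38). These 188 UMIs came from 59 of 4301 cells, with 63 of them in 5 cells. Between IgG and doxorubicin at 48 h, Rpl39l was the only member past the limit, with 25 against 188 UMIs (-2.66), where 18.3% of genes passed. It was also the only one with both antibodies against IgG, with 103 against 25 UMIs (1.79, interval 1.15 to 2.48), where 17.2% passed. Anti-PD1 and anti-CTLA4 against IgG had 0 members past the limit, where 21.8% and 24.5% of genes passed. In CD8 cells alone Rpl23a and Rpl39l passed at 48 h against untreated (27.1% of genes passed), and Rps27 (0.51) and Rpl39l with IgG against 48 h (16.3%). Rps27l passed with anti-CTLA4 against IgG (0.56, where 33% of genes passed), Rpl39l with both antibodies (18.6%) and 0 members with anti-PD1 (21.2%). The 3 antibody comparisons share the IgG library.

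**Figure D4:**
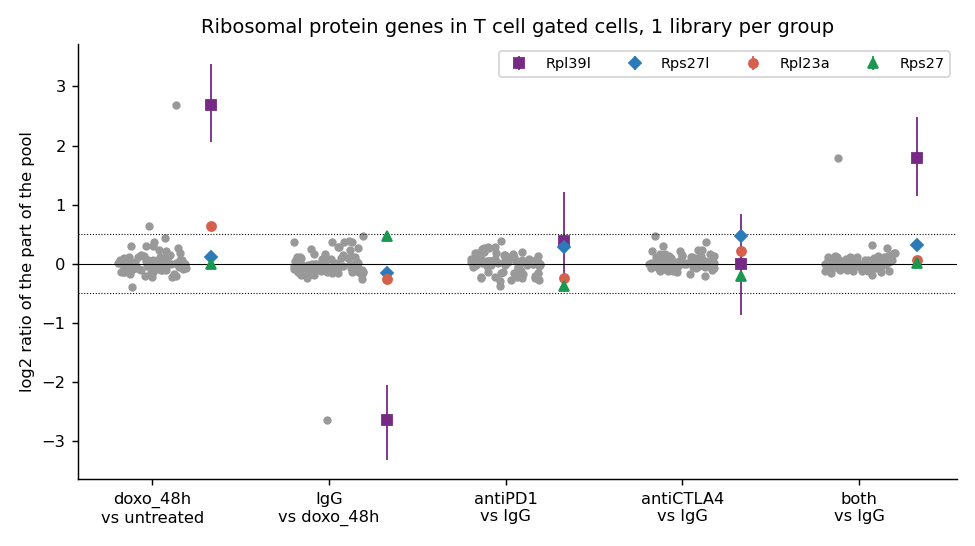
Log2 ratio of each member's share of the ribosomal protein pool in T cell-gated cells, for the 5 comparisons of T cell libraries, with 1 point per member. Rpl39l passes 0.5 in 3 comparisons and Rpl23a in 1, and the other members lie within 0.5 of 0.

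Smaller departures were those of Rps27 and Rps27l. Rps27 stood at 0.46 with IgG against doxorubicin at 48 h, at -0.37 with anti-PD1 against IgG and at -0.21 with anti-CTLA4 against IgG. Rps27l stood at 0.28, 0.46 and 0.32 in the anti-PD1, anti-CTLA4 and combined arms against IgG. These 3 ratios share the IgG library, whose 0.0681% was the lowest Rps27l value of the T cell gate. Other large ratios were Rpl41 (-0.40), Rpsa (-0.23), Rpl28 (-0.23) and Rpl5 (0.43) at 48 h against untreated. With IgG against 48 h they were Rpl23a (-0.26), Rpl37a (0.38) and Rpl35 (0.37). With anti-PD1 they were Rpl39 (-0.30), Rps21 (-0.28) and Rpl8 (0.28), and with anti-CTLA4 Rps24 (-0.17), Rps6 (-0.14) and Rpl31 (0.29). With both antibodies they were Rpl21 (-0.19), Rps4x (-0.16), Rps3a1 (-0.14) and Rpl41 (0.26).

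In the pooled tumour table the order of the classes was the same as in most sorted libraries. The share was 22.01% over all 4016 cells, 6.93% in neutrophils, 16.2% in macrophages, 24.9% in epithelial cells and 28.9% in T cells. In 56 B cells it was 32.3%.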

How the data were processed

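Single-cell 3′ libraries were made from magnetically sorted tumour cells. UMI counts in the matrices that the authors deposited are integers. The file headers name Cell Ranger 6.0.0 as their source, and mm10 is named in the submitters' processing notes. For the pooled tumour table the notes also name Seurat. The matrices carry no gene names, so names were taken from the pooled table by row order. Gene totals correlated with those of the pooled table at r = 0.954 or more in matching rows and at 0.354 or less in shifted rows, across genes, which are not replicates. Barcodes shared between libraries were not analysed. A bulk table with 12 columns that match no sample, and the chromatin samples, were not used here.

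Cells with at least 500 UMIs, 200 genes and under 20% mitochondrial UMIs were kept. A class needed UMIs of 3 of its 8 markers and a lead of 2 over every other class. No doublet caller was run. Counts were summed per library and class (30 or more cells) and tested with edgeR 4.0.16 (R 4.3.3) quasi-likelihood fits, with Benjamini-Hochberg adjustment over all genes at 0.05. The pool fit used the summed member counts as library size. DESeq2 1.42.0 was an alternative. T cell libraries were compared by log2 ratio past 0.5, with exact 95% intervals. The fits were tested on simulated data, where trimmed-mean fits recovered 51.5% of changes of 1 log2 unit and 98% of changes of 2 over the 16163 genes of whole libraries. At 1 log2 unit they recovered 19.3% in neutrophils, 41.8% in T cells, 50% in macrophages and 55.1% in epithelial cells. Pool fits recovered 30% of 10 such changes over whole libraries and in T cells. They recovered 40% in neutrophils and 60% in macrophages and in epithelial cells.

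Named genes were the 5 members with most UMIs, the paralogues, the 4 members with the smallest p each way in each fit against the pool, the 3 largest departures in T cell libraries and the 3 genes of each other list with the smallest p. Some genes that this rule names are not reported here. The members, lists and class comparisons were chosen with earlier results of these data known. Promoter sequences come from RefSeq.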

Additional observations from a re-analysis of the deposited data

How the results depend on the processing

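Counts of members called after doxorubicin depended on the settings. Over whole libraries 7 were called, 4 with RLE factors, 57 with DESeq2, 34 without a filter (8.45% of all genes called) and 0 to 0 when each library was left out. In epithelial cells the main count of 1 became 0 with RLE factors, 20 with DESeq2, 28 without a filter (10.9% of all genes), 0 with the looser gate, 0 in cells with no dividing marker and 0 to 2 with a library left out. In macrophages 0 became 9 with DESeq2 (8.12% of all genes called) and 4 without a filter. Members departing from the pool numbered 2 over whole libraries, and 0 to 1 with a library left out. In macrophages 0 became 1 in cells with no dividing marker. In epithelial cells 0 became 1 without a filter, 1 in cells with no dividing marker and 0 to 1 with a library left out. Between classes, the counts of 23, 14 and 29 became 15 (T cells) and 2 (neutrophils) with the looser gate, and 7 to 20, 6 to 18 and 15 to 27 with a library left out. Counts given here without the share of all genes called describe the settings and not the members. The cause of the changes between settings was not tested.

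Replicate numbers were shared between groups, and whether they pair the samples could not be settled from 2 libraries per group. Over whole libraries and classes, gene deviations from the group means correlated at 0.201 to 0.272 between libraries of the same number. These correlations run across genes, which are not replicates. A replicate block called 57 members over whole libraries, 18 in macrophages and 53 in epithelial cells, where it called 9.91%, 13.6% and 15.8% of all genes, and 0 in neutrophils and T cells. With the block, 4, 2 and 3 members departed from the pool over whole libraries, in macrophages and in epithelial cells, where 40.2%, 27.5% and 26.7% of all genes did. These were Rpl3l, Rpl37a, Rps27 and Rps27l; Rps9 and Rps27l; and Rpl37a, Rps27 and Rps27l.

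The whole-library share difference was -9.89 points as a mean of per-cell shares and -5.41 without neutrophils. In epithelial cells it was -7.01 as a mean of per-cell shares and -6.76 in cells with no dividing marker. In neutrophils it was -3.42 with the looser gate and ran from -0.843 (without untreated replicate 2) to 0.199 (without untreated replicate 1). In T cells it ran from -3.49 (without doxorubicin replicate 1) to 2.09 (without doxorubicin replicate 2). The median share over the T cell libraries was 32.5%. This median was 31.4% with means of per-cell shares, 32.6% in cells with 2000 or more UMIs and 32.4% with the looser gate. The pooled tumour share was 18.3% as a mean of per-cell shares. With 200 UMIs required, 0 members passed the limit for both antibodies against IgG. Rps27l in T cells against the pool ran from -0.65 (without doxorubicin replicate 2) to 0.11 (without doxorubicin replicate 1) and was 0.12 in cells with no dividing marker. Depth limits the rare paralogues: Rpl10l had 3 UMIs in all.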

Other observations

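Smaller classes gave further values of the ribosomal protein share. Natural killer cells of the pooled tumour table stood at 27.7%, and fibroblasts, which make the collagen matrix, held Rpl22l1 at 0.487 to 0.740% of the pool in 3 libraries, against 0.167 to 0.348% in neutrophils. These values come from few cells and were not tested.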
